A study of Drosophila melanogaster with 6 samples.

Results

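The cytosolic ribosomal protein genes described here are the genes whose symbol is a ribosomal protein name, RpL or RpS followed by a number, or RpLP followed by a number. On Affymetrix arrays for *Drosophila melanogaster*, 41 of the 11804 genes with a probe set of their own met this rule, 25 with names of the large subunit and 16 with names of the small subunit. Each gene is represented by its probe set, the group of short probes read as 1 value, with the highest mean over the 6 arrays. RNA came from pools labelled as 75 to 100 fly heads, female and of the wild-type laboratory strain Canton S. Pools were made at 2 ages, 3 at 40 days and 3 at 10 days, each a separate biological replicate by its label and numbered 1 to 3 within its age. All 6 pools share the strain, the sex label and the tissue label, and the labels name no treatment or transgene.

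The cytosolic ribosome translates nuclear messenger RNAs. Its small subunit reads the message and its large subunit joins the amino acids. Each ribosome holds 1 copy of nearly every ribosomal protein, so flies that lack 1 gene copy of many of these proteins develop slowly, with short thin bristles, the *Minute* phenotype. Most of the genes are transcribed at high levels in all cells. Some are duplicated, and in flies the second copy is often used mainly in the germ line. The RefSeq gene table of *D. melanogaster* lists 92 genes with such names. The other 51, among them *RpS6*, *RpS3*, *RpL5* and *RpL11*, were not analysed here. A further 3 probe sets, listed for a gene with such a name together with a second gene, were not used.

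Marker genes went against the label of female heads. The arrestin gene *Arr2*, a photoreceptor marker, averaged 15.02 at 40 days and 14.93 at 10 days on the log2 scale of the deposited values, and the neuronal gene *elav* averaged 8.62 and 8.71 at these ages. Of 10 photoreceptor genes listed, the 5 with a probe set of their own had a median of 11.22, with *Arr2* the brightest. Of 6 neuron genes listed, the 4 with a probe set of their own had one of 8.40, with *brp* the lowest at 4.94. Testis genes had a median of 13.27 over 8 genes, accessory gland genes one of 14.81 over 8 and gut enzymes one of 14.89 over 7. Ovary genes had a median of 2.06 over 9, and 8 of these lay under 4, among them *osk*, *vas* and *otu*. The samples are therefore called by their age alone. The 6 arrays had medians of 7.51 to 7.53, and the small number of arrays, 3 an age, limits precision. Samples that carry the same replicate number deviated from their age means together, so differences within a number are given beside the age difference.

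No ribosomal protein gene passed the test between the ages, and most differed very little. All 41 had a mean above 4, the limit for being tested, and the difference between 40 and 10 days was under 0.1 on the log2 scale for 29 of them. At 40 against 10 days, 0 of the 41 had a limma adjusted p under 0.05, where 0.340% of all 10286 tested probe sets did. With the replicate number as a block the count was again 0, against 1.92% of all tested. By direction, the shares of all tested probe sets were 0.165% higher and 0.175% lower at 40 days, and with the block 0.622% higher and 1.30% lower, each beside 0 members. At such shares a count of 0 among 41 genes does not set the members apart. At an unadjusted p under 0.05, 4 members (9.76%) and 13.1% of all tested probe sets were counted, and with the block 6 members (14.6%) and 25.1%. The lowest adjusted p among members was 0.163, and 0.0808 with the block, both for *RpS10a*. A p that misses the threshold does not show that a gene did not differ, so the sizes and 95% intervals of the differences are given below. Fewer cells of a type and less RNA per cell cannot be told apart in pooled tissue.

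Members split by their names into genes with a single name, 26 of them, and genes with a duplicated name, 15 of them, whose symbol ends in a letter a or b, in -like, or in a second number. The single-name genes had a median difference of -0.03, and the duplicated-name genes one of 0.11, where all tested probe sets had one of 0.01. Differences of the single-name genes ran from -0.18 to 0.08, and those of the duplicated-name genes from -0.35 to 0.60. Of the single-name genes 19 of 26, or 73.1%, were below 0. The share was 48.2% over all tested probe sets and 54.8% over the other probe sets with a mean of at least 14. The count of 19 was 18 with arrays centred on their medians and 15 after quantile normalization. Without day 10 replicate 2 it was 12, and the median of the single-name genes was then 0.00135. Leaving out day 10 replicate 1 gave a median of -0.05 for the single-name and 0.06 for the duplicated-name genes, and leaving out day 40 replicate 1 gave one of -0.0041 for the single-name genes. Their 95% intervals together spanned -0.40 to 0.18.

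**Figure D1:**
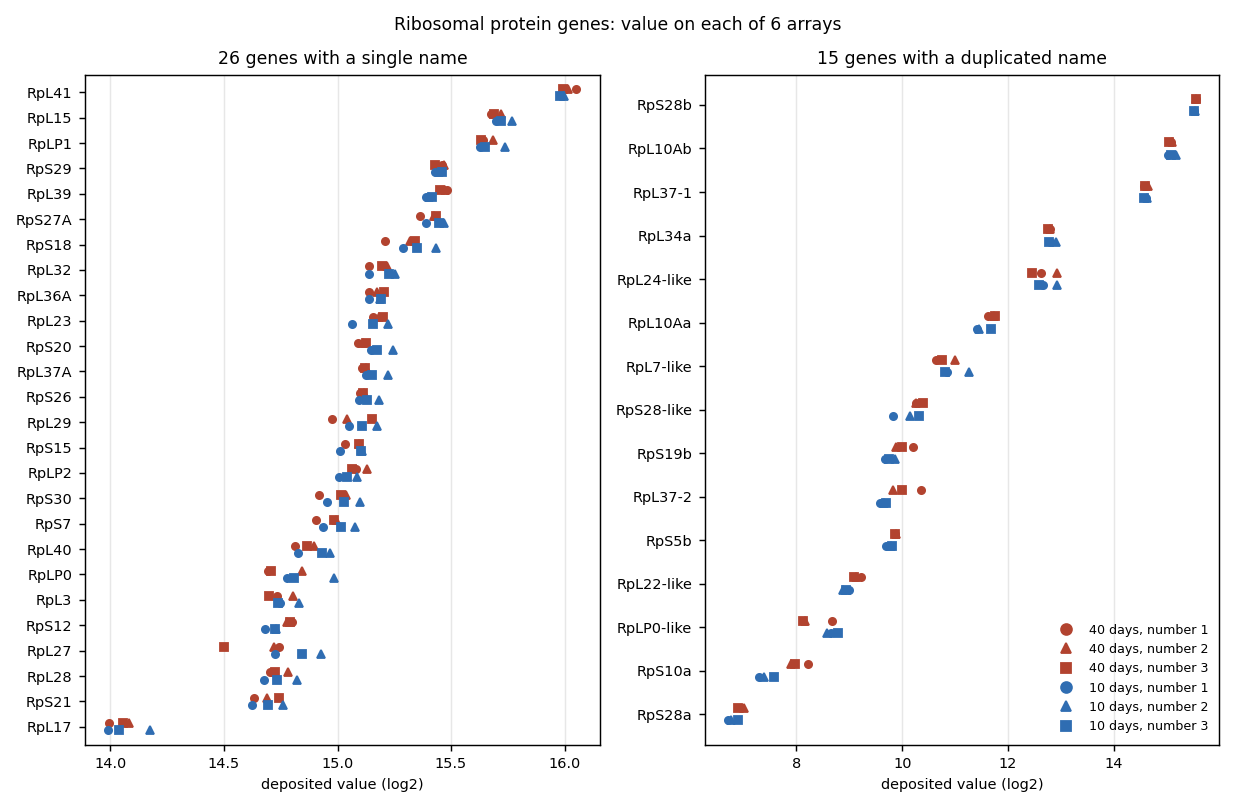
Deposited log2 values (x axis, which does not start at 0 and differs between the panels) of the 26 single-name genes (left) and the 15 duplicated-name genes (right) on the 6 arrays, red for 40 days and blue for 10 days, with a circle, triangle or square for replicate numbers 1, 2 and 3. The single-name genes lie between 13.99 and 16.05 with the ages mostly mixed, and the 40-day points of *RpS10a*, *RpL37-2*, *RpS19b* and *RpL22-like* all lie to the right of their 10-day points.

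The proteins of the ribosomal stalk, the part of the large subunit that binds elongation factors, showed no common direction. *RpLP0*, the base of the stalk, had values of 14.69, 14.84 and 14.71 at 40 days (replicate numbers 1, 2 and 3), against 14.78, 14.99 and 14.81 at 10 days. Within each number its 40-day value was the lower one, while the ages overlapped. The difference was -0.11 ± 0.08 (log2 ± SE, 95% interval -0.30 to 0.08; limma adjusted p = 0.568, and 0.156 with the block). *RpLP1*, which with RpLP2 forms the dimers of the stalk, had 15.64, 15.68 and 15.63 at 40 days, against 15.63, 15.74 and 15.65 at 10 days. *RpLP2* had 15.08, 15.13 and 15.06 at 40 days, against 15.004, 15.09 and 15.04 at 10 days. Its 40-day value was the higher one within each number, by 0.08, 0.04 and 0.02, with an age difference of 0.05 ± 0.05. For *RpLP1* the age difference was -0.02 ± 0.05, and the direction was not the same in all numbers.

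Both genes that encode a ubiquitin joined to a ribosomal protein had age differences under 0.1 and overlapping ages. *RpL40* had 14.81, 14.90 and 14.87 at 40 days, against 14.83, 14.97 and 14.93 at 10 days. *RpS27A* had 15.36, 15.42 and 15.43 at 40 days, against 15.39, 15.47 and 15.45 at 10 days. The 40-day value was lower in every number for both genes. The differences were -0.05 (95% interval -0.19 to 0.08) for *RpL40* and -0.03 (-0.14 to 0.08) for *RpS27A*.

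*RpL27* gave the widest difference among single-name genes of the large subunit. It had 14.74, 14.72 and 14.50 at 40 days, against 14.72, 14.93 and 14.84 at 10 days. The number 3 sample of 40 days was the lowest of the 6, and in number 1 the ages differed by only 0.02. The difference was -0.18 ± 0.09 (95% interval -0.40 to 0.04; limma adjusted p = 0.449). *RpL3*, a core protein next to the peptidyl transferase centre, averaged 14.75 ± 0.05 at 40 days and 14.77 ± 0.05 at 10 days (SD, n = 3 each).

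*RpL39*, a short protein lining the exit tunnel of the large subunit, was the large-subunit gene with a single name whose 40-day values all lay above its 10-day values. They were 15.48, 15.47 and 15.45 at 40 days, against 15.39, 15.40 and 15.42 at 10 days, a difference of 0.06 ± 0.04 (limma adjusted p = 0.497). *RpL37A* lay the other way, with 15.11, 15.12 and 15.12 at 40 days, against 15.13, 15.22 and 15.15 at 10 days, and a difference of -0.05 ± 0.04 (adjusted p = 0.659). Both differences are a few hundredths of a log2 unit. *RpL32*, known as rp49 and often used as a reference gene in fly RNA measurements, averaged 15.18 ± 0.04 at 40 days and 15.21 ± 0.06 at 10 days. Its difference was -0.02 (95% interval -0.14 to 0.10). Of the other large-subunit genes with a single name, *RpL41* gave 0.03, *RpL23* 0.03, *RpL29* -0.05 and *RpL15* -0.03. *RpL17*, *RpL28* and *RpL36A* completed the 16, with differences inside the range of these 4.

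In the small subunit, *RpS12* and *RpS20* were the single-name genes whose ages did not overlap, in opposite directions. *RpS12*, which in flies takes part in the removal of *Minute* cells by cell competition, had 14.80, 14.78 and 14.79 at 40 days, against 14.68, 14.73 and 14.73 at 10 days. The difference was 0.08 ± 0.04 (limma adjusted p = 0.475). *RpS20*, a protein of the head of the small subunit, had 15.09, 15.11 and 15.13 at 40 days, against 15.15, 15.24 and 15.17 at 10 days, a difference of -0.08 ± 0.05 (adjusted p = 0.492). *RpS18*, another protein of the head, averaged 15.29 ± 0.07 at 40 days and 15.36 ± 0.07 at 10 days, with a difference of -0.07 ± 0.06. *RpS7* gave -0.05 and *RpS30*, made as a fusion to a ubiquitin-like protein, -0.04. *RpS15*, *RpS21*, *RpS26* and *RpS29* completed the 10 with *RpS27A*, at -0.03 to 0.01.

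Among the duplicated-name genes the ages did not overlap for 7 of 15, all higher at 40 days, where 11.4% of all tested probe sets were separated in that direction. These were *RpS10a*, *RpL37-2*, *RpS19b*, *RpL22-like*, *RpS28a*, *RpS5b* and *RpS28b*. None was separated in the other direction, where the share of all tested probe sets was 8.42%. Among the single-name genes 2 were separated upwards, *RpL39* and *RpS12*, and 2 downwards, *RpS20* and *RpL37A*. Over all 41 genes 11 were separated, 9 higher and 2 lower, where 19.8% of all tested probe sets were separated in either direction. These counts are to be read with the sizes, since *RpS28b* was separated at a difference of only 0.02. The ages also nearly touched for *RpS28a*, with a lowest 40-day value of 6.896 against a highest 10-day value of 6.892. For *RpS19b* these values were 9.888 and 9.867. The count of 9 ran from 7 to 11 over the alternatives, while the count of 2 lower was 1 with arrays centred or quantile normalized, 6 without both samples of number 2, 4 without day 40 replicate 1, 6 without day 40 replicate 2 and 10 without day 10 replicate 1.

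**Figure D2:**
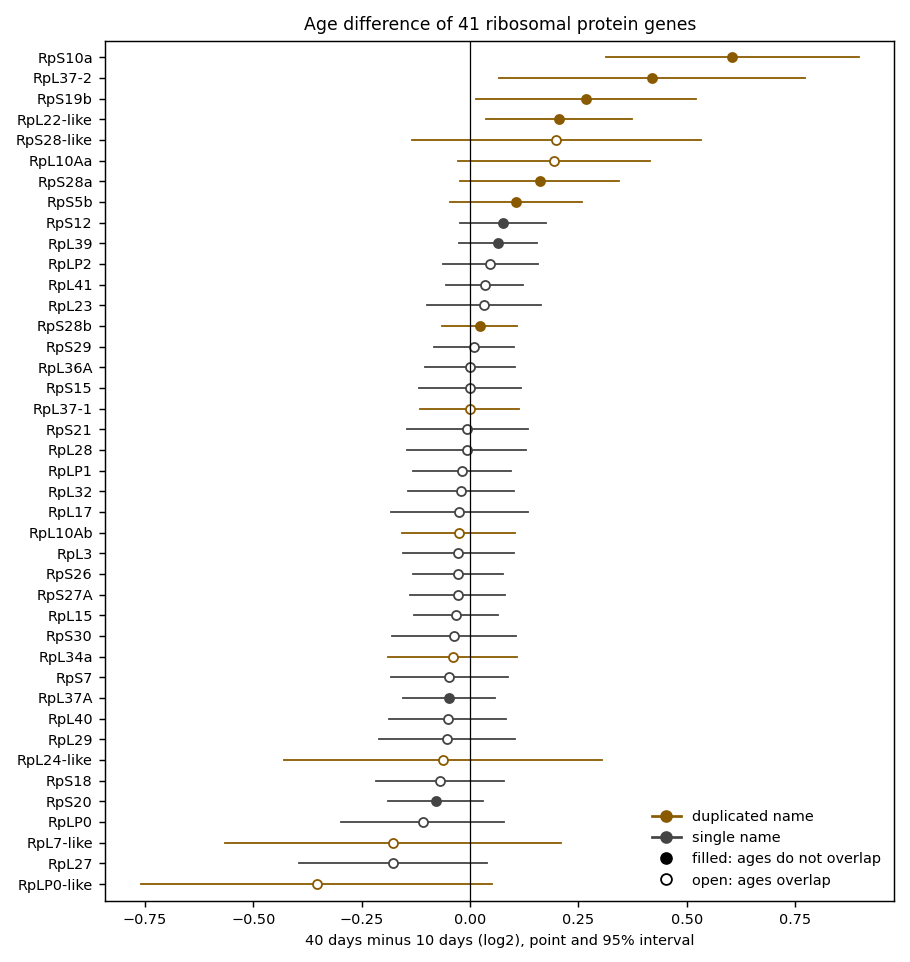
Age difference of each of the 41 genes (40 days minus 10 days, log2; points with limma 95% intervals), brown for duplicated and grey for single names, filled where the 3 values of 40 days and the 3 of 10 days do not overlap. *RpS10a* at 0.60 and *RpL37-2* at 0.42 stand at the top and *RpLP0-like* at -0.35 at the bottom, with the single-name genes between -0.18 and 0.08.

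*RpS10a*, a germ line-enriched copy of the small-subunit protein RpS10 in flies, had the widest age difference of all members. Its values were 8.21, 7.90 and 7.97 at 40 days, against 7.30, 7.38 and 7.59 at 10 days. Every 40-day sample lay above every 10-day sample, and the number 1 samples were farthest apart, at 0.92, with 0.52 in number 2 and 0.38 in number 3. The difference was 0.60 ± 0.12 (95% interval 0.31 to 0.90), or 1.52-fold. It did not pass over all probe sets (limma adjusted p = 0.163). With the block its adjusted p was 0.0808, and over 18 alternatives it ran from 0.0808 to 0.414 with differences of 0.51 to 0.69.

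*RpL37-2*, the second gene for the zinc-binding large-subunit protein RpL37, had 10.36, 9.83 and 9.99 at 40 days, against 9.57, 9.66 and 9.69 at 10 days. The ages did not overlap, and the difference within number 1 was 0.79, against 0.17 in number 2 and 0.30 in number 3. The age difference was 0.42 ± 0.14 (95% interval 0.07 to 0.77; limma adjusted p = 0.333, and 0.157 with the block). Without day 40 replicate 1 the difference was 0.27, the lowest of its values over the alternatives. *RpS19b*, a copy of RpS19 enriched in the fly germ line, had 10.19, 9.89 and 10.00 at 40 days, against 9.67, 9.87 and 9.74 at 10 days. Its difference was 0.27 ± 0.10 (adjusted p = 0.366), and in number 2 the ages differed by only 0.02.

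*RpL22-like*, a copy of RpL22 known for its use in the fly male germ line, differed evenly across the numbers. It had 9.21, 9.13 and 9.10 at 40 days, against 9.001, 8.89 and 8.94 at 10 days. The 40-day values were all higher, by 0.21, 0.25 and 0.15 within numbers 1, 2 and 3. The difference was 0.20 ± 0.07 (95% interval 0.04 to 0.37; limma adjusted p = 0.325, and 0.144 with the block).

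Most testis genes, like these copies, lay higher at 40 days. Of 7 tested testis markers 6 were above 0, with a median difference of 0.18, and 3 had ages that did not overlap and were higher at 40 days, *Mst84Db*, *Mst84Dd* and *betaTub85D*, where 11.4% of all tested probe sets were separated in that direction. The log2 of the summed signal of the 8 testis genes with a probe set was 16.50 to 16.55 at 40 days, against 16.26 to 16.44 at 10 days. The sperm gene *dj* was the exception and the one marker past the test, with a difference of -1.18 (limma adjusted p = 0.00347), and *can* lay under 4 on average. The summed signal of the accessory gland list was 17.86 to 18.03 at 40 days, against 17.58 to 18.16 at 10 days. That of the ovary list was 8.30 to 8.53 at 40 days, against 8.46 to 8.58 at 10 days. It came mostly from 1 gene, *gcl*, which averaged 8.26 at 40 days and 8.35 at 10 days, while the other 8 lay under 4. The part of these tissues in the differences of the duplicated-name genes was not tested.

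Duplicated-name genes could be set beside a partner of the matching name for 5 pairs. Among these, *RpLP0-like* matches *RpLP0* by name but is a relative of an assembly factor, as described below. Other duplicated-name genes, among them *RpS10a*, *RpS19b*, *RpL22-like* and *RpS5b*, had no such partner among the members and are not in these pairs. The measure is the difference between the 2 probe sets within an array, whose size is not a ratio of transcripts, since probe sets differ in response. *RpL37-2* minus *RpL37-1* was -4.21, -4.82 and -4.59 at 40 days, against -5.04, -4.97 and -4.87 at 10 days. All 3 differences of 40 days lay above all 3 of 10 days, a shift of 0.42 (exact permutation test over samples, two-sided, p = 0.1, the smallest that 3 against 3 samples allow). *RpL37-1* itself had 14.57, 14.65 and 14.59 at 40 days, against 14.61, 14.63 and 14.56 at 10 days, so nearly all of the shift came from *RpL37-2*.

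*RpL10Aa* minus *RpL10Ab*, genes for the 2 forms of a protein of the L1 stalk, was -3.46, -3.36 and -3.28 at 40 days, against -3.61, -3.73 and -3.41 at 10 days. The shift was 0.22 and present in all 3 numbers, but the ages overlapped (exact permutation p = 0.2). *RpL10Aa* had 11.62, 11.73 and 11.75 at 40 days, against 11.41, 11.44 and 11.67 at 10 days. *RpL10Ab* averaged 15.07 ± 0.03 at 40 days and 15.09 ± 0.08 at 10 days.

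The gene *RpS28b* has 2 relatives among the members, and both lay higher against it at 40 days on average without separating the ages. *RpS28b* was the steadiest, with 15.54, 15.54 and 15.55 at 40 days, against 15.52, 15.53 and 15.52 at 10 days. *RpS28a* had 6.96, 7.003 and 6.90 at 40 days, against 6.72, 6.77 and 6.89 at 10 days, and its shift against *RpS28b* was 0.14 (exact permutation p = 0.2). *RpS28-like* had 10.26, 10.25 and 10.38 at 40 days, against 9.82, 10.16 and 10.32 at 10 days, with a shift of 0.18 (exact permutation p = 0.3), most of it in number 1. Over the 5 pairs the adjusted p of the permutation test ran from 0.333 to 0.4. No pair could pass 0.05, since the smallest p that 3 against 3 samples allow is 0.1. With the replicate number as a block the smallest p that 3 pairs of samples allow is 0.25. The shift had 1 direction in all 3 numbers for 3 of the 5 pairs. The count of pairs whose ages did not overlap, 1, was 4 without day 10 replicate 3, 3 without day 40 replicate 1 and 2 without day 40 replicate 3.

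**Figure D3:**
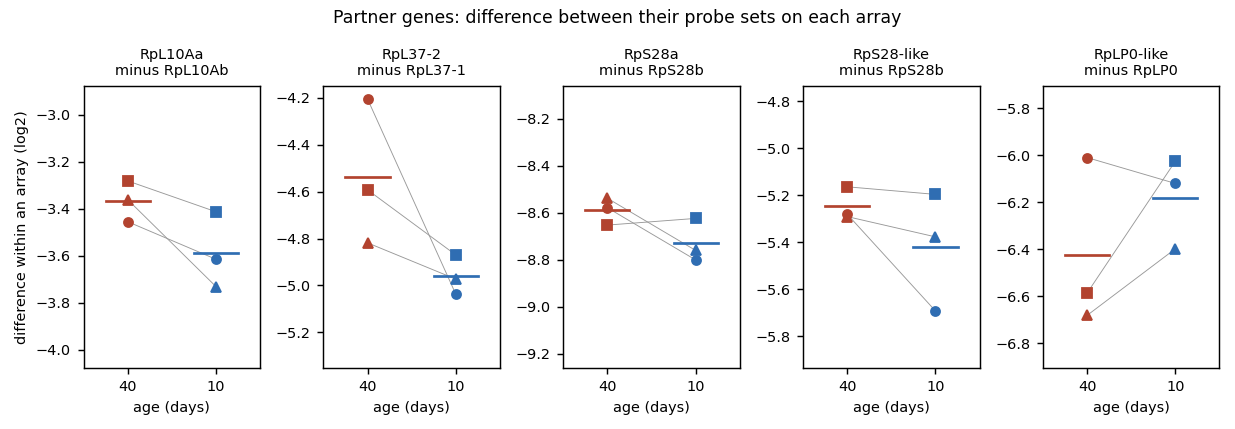
Difference between the log2 values of 2 partner genes on each array (y axis, 1 panel a pair, each spanning 1.2 log2 units), for 40 days (red, left) and 10 days (blue, right); circle, triangle and square mark numbers 1, 2 and 3, grey lines join the same number and bars are means. *RpL37-2* minus *RpL37-1* is the pair whose ages do not overlap, and *RpLP0-like* minus *RpLP0* lies lower at 40 days in 2 of 3 numbers.

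Among the members named -like are 3 that are relatives of assembly factors rather than of the finished ribosome. *RpLP0-like*, the fly relative of the yeast large-subunit assembly factor Mrt4, had 8.68, 8.16 and 8.12 at 40 days, against 8.66, 8.59 and 8.78 at 10 days. The number 2 and 3 samples of 40 days were the lowest of the 6, while the ages were level in number 1. Its difference was -0.35 ± 0.17 (95% interval -0.76 to 0.05; limma adjusted p = 0.423, and 0.217 with the block), and its shift against *RpLP0* was -0.24 (exact permutation p = 0.4). *RpL7-like*, the relative of yeast Rlp7, had 10.63, 10.998 and 10.76 at 40 days, against 10.84, 11.27 and 10.82 at 10 days. It was lower at 40 days within each number, by 0.20, 0.27 and 0.06, with an age difference of -0.18 ± 0.16 (adjusted p = 0.660). *RpL24-like*, the relative of yeast Rlp24, averaged 12.66 ± 0.24 at 40 days and 12.72 ± 0.18 at 10 days, a difference of -0.06 ± 0.15 whose sign turned under 2 of 18 alternatives. *RpL34a* also has a duplicated name, but its partner was not analysed here, and it averaged 12.78 ± 0.03 at 40 days and 12.82 ± 0.08 at 10 days.

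The small differences of the single-name genes go with values near the top of the scale. The table ends at 16.10, and 29 of the 41 members had a mean of at least 14, as did 288 of all probe sets. These 29 members had a median absolute age difference of 0.03, against 0.07 for the other 259 probe sets as bright, and the median SD within an age was 0.05 against 0.08. All tested probe sets had medians of 0.12 and 0.13 for these measures. Probes that are near saturation respond less to a change in RNA. Whether that holds for these probe sets was not tested.

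**Figure D4:**
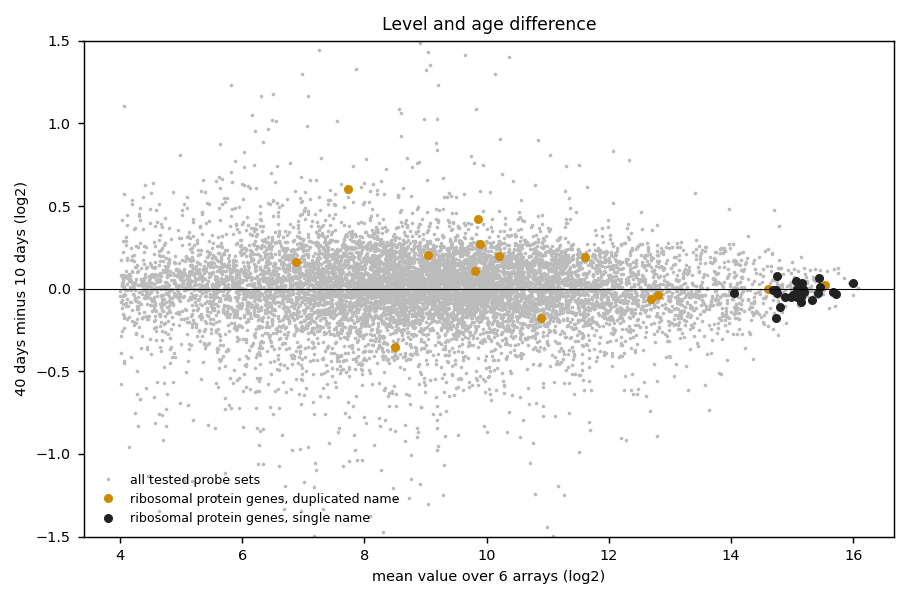
Mean log2 value over the 6 arrays (x axis) and age difference (40 days minus 10 days, log2, y axis) of all tested probe sets (grey), single-name members (black) and duplicated-name members (orange); 39 probe sets differ by over 1.5 and lie outside the plot. Black points gather at the right within 0.2 of the zero line, and the orange points spread over lower values and wider differences.

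The bright members also differed between replicate numbers. The number 2 sample was the highest of its age at both ages for 13 of the 26 single-name genes, or 50.0%, a share of 20.9% over all tested probe sets and 32.4% over the other probe sets with a mean of at least 14. At 10 days it was the highest for 23 of the 26. The median deviation of the single-name genes from their own mean was -0.04, 0.02 and -0.0018 in the 40-day samples numbered 1, 2 and 3, against -0.04, 0.07 and 0.01 in the 10-day samples. The number 2 pool of 10 days was thus the highest, and the median difference within the numbers was 0.001, -0.05 and -0.01. Without both samples of number 2 their median age difference was -0.01.

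Several probe sets represented *RpL3*, *RpS29*, *RpS30* and *RpS7*, and their bright and dim probe sets did not all give the same difference. The other probe set of *RpS7* and the dimmest of *RpL3* lay at or near the lowest value of the table in all 6 samples. *RpS29* had probe sets at 15.45, 14.85 and 6.72 at 40 days, against 15.44, 14.87 and 6.73 at 10 days, with differences of 0.01, -0.02 and -0.01. A dim probe set of *RpL3* had 3.35, 5.28 and 4.14 at 40 days, against 4.39, 5.98 and 4.68 at 10 days. It was lower at 40 days within each number, by 1.04, 0.70 and 0.54, near background, with a difference of -0.76 ± 0.61 (limma adjusted p = 0.622, and 0.0633 with the block), while the bright probe set of the gene gave -0.03. A dim probe set of *RpS30* gave -0.20 against -0.04 for the bright one. Probe set names mark 14 of the 41 representatives as shared by several transcripts and 4 as shared by transcripts of the same gene, so signal from near-identical copies may mix in those 14.

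Genes that work with the ribosome gave small differences too, and none was called with or without the block. Of 28 translation initiation factors 19 were below 0, or 67.9% where 48.2% of all tested probe sets were, with a median of -0.04. Of the 28, 6 had ages that did not overlap, all lower at 40 days, or 21.4% where 8.42% of all tested were lower in this way. Their median was -0.01 after quantile normalization, -0.07 without day 10 replicate 1, -0.09 without day 10 replicate 3 and -0.10 without day 40 replicate 2. *eIF2Bbeta*, a subunit of the exchange factor that recharges eIF2 with GTP, gave -0.31 ± 0.07 (limma adjusted p = 0.220, and 0.102 with the block). *eIF6*, which keeps the subunits apart until the large one is mature, gave -0.19, and *eIF2Bgamma*, another subunit of the exchange factor, gave -0.18 (adjusted p = 0.364 and 0.373). The helicase gene *eIF4A*, which unwinds the start of the message, averaged 14.67 at both ages.

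Of 23 tested genes of ribosome assembly and RNA polymerase I, 15 were below 0, or 65.2% where 48.2% of all tested probe sets were, with a median of -0.06. The ages were separated for 1 gene, or 4.35%, where 19.8% of all tested probe sets were separated in either direction. This was *bys*, needed to finish the small subunit, at -0.22 ± 0.06 (limma adjusted p = 0.262). *Polr1A*, the largest subunit of RNA polymerase I, gave -0.21, as did *Surf6*, a nucleolar protein (adjusted p = 0.465 and 0.540). The 5 elongation factors analysed had a median of -0.02, with *eEF1delta* at -0.17 and *eEF1alpha2*, which brings charged tRNAs to the ribosome, at 0.10 (adjusted p = 0.560 and 0.604), and *eEF5* at -0.02. *Rack1*, a scaffold on the head of the small subunit, gave -0.05 (adjusted p = 0.797). The 69 mitochondrial ribosomal protein genes had a median of -0.04 and 45 below 0, or 65.2% where 48.2% of all tested probe sets were. Among the 69, 12 were separated downwards and 1 upwards, or 17.4% and 1.45%, where the shares of all tested probe sets were 8.42% and 11.4%. *mRpL2*, *mRpS5* and *mRpL3* gave -0.25, -0.29 and -0.17 (adjusted p = 0.310 to 0.351).

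**Figure D5:**
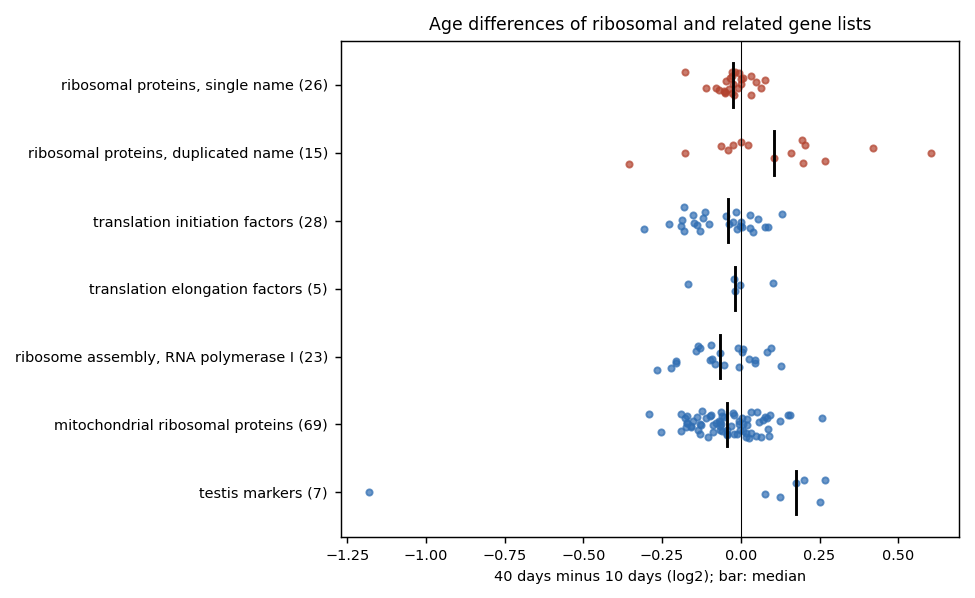
Age differences (40 days minus 10 days, log2, x axis) of the tested genes of each list, 1 point a gene with the median as a black bar and the number of genes in brackets; red for the cytosolic ribosomal proteins and blue for the related lists and the testis markers. The single-name ribosomal proteins are packed between -0.18 and 0.08, and the duplicated-name genes and the testis markers have medians of 0.11 and 0.18, with *dj* at -1.18.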

How the data were processed

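Total RNA of 6 pools of heads, 3 per age, was amplified from 150 ng and hybridised to Affymetrix 3' arrays, per the labels. The authors deposited log2 values, which span 2.06 to 16.10, made with GCRMA, per the submitters' processing notes. The version used is not given in the sources used here. GCRMA corrects background, normalizes between arrays and joins the probes of a probe set. Probe sets were named through the annotation given for the array, 13333 of 15131 with 1 gene, 390 with several and 1408 with none, and all 41 members matched a RefSeq gene by identifier. Sequences, and with them the promoter motifs that were planned, were not used here.

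The 10286 probe sets with a mean of at least 4 were tested with limma 3.58.1 in R 4.3.3 (eBayes with a trend, two-sided) on the values as deposited, with Benjamini-Hochberg adjustment over all of them at a threshold of 0.05. Pairs of partner genes were compared by an exact permutation test (scipy 1.17.1), adjusted over 5 pairs. The script of the test was run on simulated data first. Members, lists and tests were chosen with earlier results of these data known. Named were all duplicated-name genes, the 10 largest differences each way among the rest (7 lay above 0), members of the stalk, the ubiquitin fusions and *RpL3*, and the 3 genes with the smallest p in each related list; *RpL32*, *eIF4A*, single markers, dim probe sets and the genes that complete a group were named after their values were seen. The labels do not say whether replicate numbers pair samples across ages. Deviations from the age means correlated at 0.707, 0.772 and 0.353 in numbers 1, 2 and 3, all over 0.1, so the numbers were taken to pair the samples. The correlation between samples of different numbers was not computed, so these values do not establish the pairing. Alternatives were other filters, centring, quantile normalization, other moderation, the block, array weights, floored values, samples left out and averaging a gene's probe sets. Each p value sets an age difference against the variation between these pools only. In the limma fits that variation was moderated over all tested probe sets.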

Additional observations from a re-analysis of the deposited data

How the results depend on the processing

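No member was called under any of the 18 alternatives, with a lowest adjusted p of 0.0808, under the replicate block. Calls were rare over all tested probe sets too, at 0.340% without and 1.92% with the block, so this does not set the members apart. The count of all probe sets called, 35, was 198 with the replicate block, 118 with the block and without both samples of number 2, 17 without both of these samples alone, and 21 with a filter at 6. With 1 sample left out it ran from 16 to 32, being 20 without day 10 replicate 1, 16 without day 10 replicate 3 and 19 without any 1 of the 40-day samples, and the count of members called ran from 0 to 0. The count of partner pairs with separated ages, 1, became 3 under the replicate block, read as pairs with 1 direction in all numbers, and ran from 1 to 4 with 1 sample left out. Direction turned for up to 11 members, all uncalled: 11 without day 10 replicate 2, 7 on quantile normalization, 6 without day 40 replicate 1, 5 without both samples of number 2 and 2 on centring. The median difference of the duplicated-name genes stayed between 0.06 and 0.13 over the alternatives. Leaving out a sample makes separated ages more frequent by construction.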
